A study of Homo sapiens with 79 samples.

Results

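The RNA recovered with CBX3, the chromatin protein also known as HP1 gamma, was compared with RNA of K562 lysate that had not been precipitated. The libraries were chosen by their labels: 3 CBX3 fRIP libraries were set against the 3 libraries of input set 1, out of 79 libraries in the series, and all 9 input libraries served as a check. The labels do not say which input set belongs to the CBX3 fRIP. In formaldehyde RNA immunoprecipitation (fRIP), living cells are lightly cross-linked and then broken open with sound, an antibody to 1 protein is added, and the RNA that comes down with it is sequenced beside RNA set aside from the lysate (input). The series holds 70 fRIP libraries of 24 targets (CBX3 and phospho-CBX3 counted apart), all from K562, an established human erythroleukemia line with the BCR-ABL1 fusion. All groups described here, input included, were untreated K562 cells with no engineered genotype, fixed with formaldehyde. The CBX3 libraries were made with an antibody from Millipore. They were also compared with the fRIP labelled pcbx, here called phospho-CBX3 although its labels do not spell out a phosphorylated form, which used an antibody from Cell Signaling, and with the fRIP of SUZ12, a subunit of Polycomb repressive complex 2. Each of these groups had 3 libraries. By the study's methods, the replicates of a fRIP were made from separate lysates on separate dates. Input was the only background used.

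CBX3 belongs to the heterochromatin protein 1 family with CBX1 and CBX5. These proteins read methylated lysine 9 of histone H3 with a chromodomain and bind partner proteins, among them histone chaperones and methyltransferases, with a chromoshadow domain. CBX3 is known for its presence in transcribed gene bodies as well as in heterochromatin, and it has been linked to the splicing of pre-mRNA.

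Values were the authors' FPKM (fragments scaled by the length of the transcript and by the size of the library). Every log2 difference was taken after adding 1 FPKM, so changes of genes with low values come out too small. Enriched and depleted refer to genes that passed a limma adjusted p of 0.05 and also changed by over 2-fold. FPKM is relative to the rest of a library, so poorer recovery of 1 RNA and better recovery of the others cannot be told apart. What 1 fragment is worth in FPKM, read from genes with a single isoform, gave a depth of 11.6 to 15.8 M (mega) fragments for the CBX3 libraries and 21.6 to 22.1 M for input set 1, so that low values are less precise in CBX3. Of 12 K562 markers, 11 reached 1 FPKM in all 6 libraries, HBZ being the exception. GATA1, the erythroid transcription factor, averaged 69.8 FPKM in CBX3 and 67.9 FPKM in input. Of 9 markers of other cell types, MS4A1 was listed at 0 throughout, whereas others, EPCAM and CD3D among them, were above 1 FPKM in every library, with CD3D at a mean of 18.3 FPKM in CBX3 and 17.9 FPKM in input, and the summed level of all 9 was 36.4 to 58.7 FPKM in CBX3 and 50.4 to 58.1 FPKM in input. Pearson correlations across genes were 0.967 to 0.975 among CBX3 libraries, 0.973 to 0.983 among input set 1 libraries and 0.934 to 0.943 between the groups.

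The mRNA of CBX3 itself was at 199, 173 and 193 FPKM in the CBX3 fRIP and at 136, 154 and 149 FPKM in input set 1. The groups did not overlap, but the log2 difference was only 0.36 (SE 0.14, limma adjusted p = 0.0474), under the change needed for a call, and it was -0.03 against input set 2. CBX5, which encodes HP1 alpha, was lower, at 35.4, 33.1 and 34.4 FPKM in CBX3 and 58.0, 61.8 and 63.9 FPKM in input set 1. This 1.76-fold difference (log2 -0.82, SE 0.20, limma adjusted p = 0.00103) also stayed under the fold needed for a call. CBX1, which encodes HP1 beta, averaged 26.4 ± 3.59 FPKM in CBX3 and 28.0 ± 1.22 FPKM in input (SD, n = 3 each).

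Of 25442 genes tested, 1360 (5.35%) were enriched in CBX3 fRIP and 993 (3.90%) were depleted, and the median log2 fold change of all genes was 0.01. Against all 9 inputs, 1895 genes (7.45%) were enriched and 928 (3.65%) depleted, and 2419 and 2309 were enriched against input sets 2 and 3. With a mean of at least 5 FPKM, 478 genes were depleted. Without regard to the test, all 3 CBX3 libraries lay above all 3 input set 1 libraries for 6495 genes (25.5%) and below them for 5323 (20.9%). Of 13618 mRNA genes, 1056 (7.75%) were enriched and 266 (1.95%) depleted, with a median of 0.14. Genes for lncRNAs were enriched in 162 of 5245 cases and depleted in 240, with a median of -0.05, and pseudogenes were enriched in 104 of 5247 cases and depleted in 410, with a median of -0.15. The balance for lncRNAs depended on the input, as against all 9 inputs 259 were enriched and 92 depleted (median 0.03), and with centred libraries 194 and 197. For pseudogenes the counts against all 9 inputs were 189 and 236 (median -0.08).

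Among called genes with a mean of at least 5 FPKM and no overlap, the 12 mRNAs with the largest enrichment included CLK2, CLASRP and CDK11A. These were not drawn from a list. CLK2 (chr1:155232659-155248282, minus strand, hg19), a kinase that phosphorylates SR splicing factors, was at 116, 131 and 149 FPKM in CBX3 and at 28.6, 26.5 and 30.1 FPKM in input set 1. This was a 4.51-fold difference (log2 2.17, SE 0.17, limma adjusted p = 4.54e-15), and the highest of the 9 inputs was 30.1 FPKM. CLASRP (chr19:45542303-45574214, plus strand), an SR-like protein that binds a CLK kinase, was at 150, 158 and 191 FPKM against 36.3, 40.1 and 38.6 FPKM in input. Its groups did not overlap either, with a log2 fold change of 2.08 (SE 0.20, limma adjusted p = 6.82e-12). CDK11A, a cyclin-dependent kinase linked to splicing, had a log2 fold change of 2.16, but 65.2% of the 31-base stretches of its transcripts occur in other genes, so reads may be shared with its near copy CDK11B and the value is uncertain. The other CLK kinases were looked at after these values were seen. CLK1 was enriched with a log2 fold change of 1.23, at 93.1, 91.0 and 104 FPKM against 39.6, 40.0 and 41.2 FPKM, and CLK3 was enriched with 1.18. CLK4 had 0.81, which was no call, although against all 9 inputs it reached 1.10.

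Other mRNAs at the top of the order had varied roles. TPM2 (chr9:35681989-35690053, minus strand), which encodes beta-tropomyosin, was at 25.5, 30.9 and 33.4 FPKM in CBX3 and at 5.36, 5.33 and 3.54 FPKM in input set 1, a 5.42-fold difference (log2 2.44, SE 0.23, limma adjusted p = 2.19e-12). HAGHL, a hydrolase-like gene, was at 172, 35.9 and 57.9 FPKM against 14.7, 12.8 and 12.5 FPKM. Every CBX3 library was above every input, but replicate 1 was far above the others, and 32.9% of its exon bases overlap CIAO3. PNCK, a calmodulin-dependent kinase, also varied among the CBX3 libraries, at 38.5, 75.2 and 27.1 FPKM against 7.34, 10.3 and 10.6 FPKM (log2 2.09, SE 0.57, limma adjusted p = 0.00337). OPLAH, an oxoprolinase of the glutathione cycle, was steady at 175, 232 and 218 FPKM against 48.4, 48.5 and 47.2 FPKM, with a log2 fold change of 2.08. The log2 fold change was 2.09 for PCSK4, a proprotein convertase, and 2.08 for KLHL17, a kelch-like protein. The read-through genes ARHGAP19-SLIT1 and ZFP91-CNTF had log2 fold changes of 2.83 and 2.60, but they share exons with their parent genes and are uncertain.

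**Figure D1:**
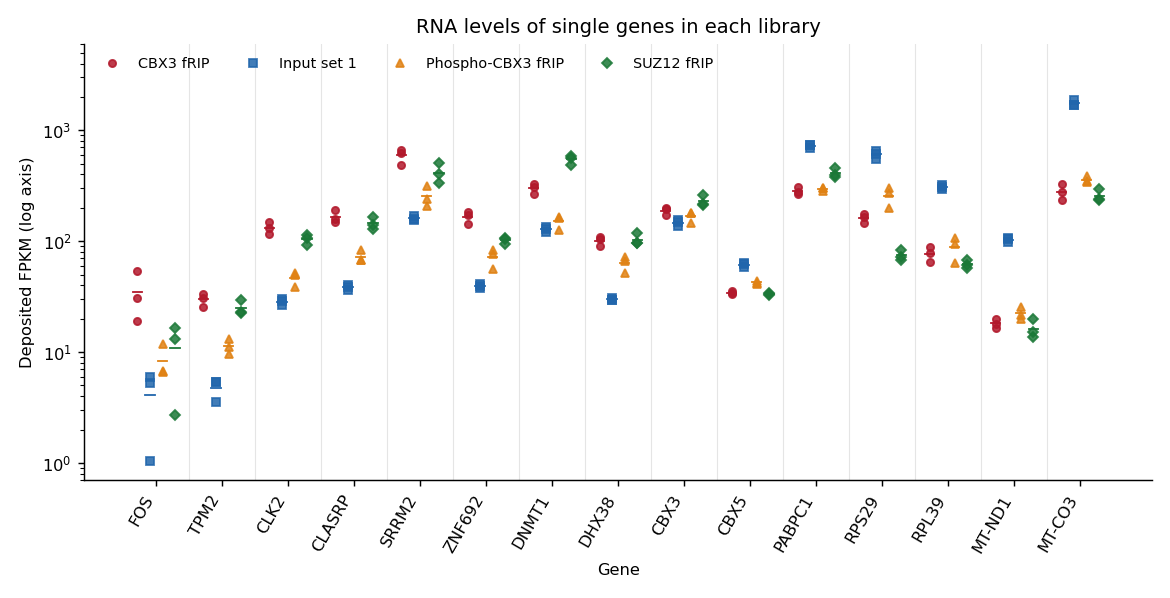
FPKM (log axis) of 15 genes in each library of CBX3 fRIP, input set 1, phospho-CBX3 fRIP and SUZ12 fRIP, with points for libraries and a dash for the mean of 3. From FOS to DHX38 the CBX3 points lie above those of input set 1, and from PABPC1 to MT-CO3 they lie below, as for CLK2 with 116 to 149 FPKM against 26.5 to 30.1 FPKM.

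Both lists of splicing genes had enriched members. Of 40 SR protein and hnRNP genes, 7 (17.5%, beside 7.75% of mRNA genes) were enriched and 0 depleted, with a median log2 fold change of 0.38 beside 0.14 for mRNA genes and 0.01 for all genes, and of 55 spliceosome genes 10 (18.2%) were enriched and 0 depleted, with a median of 0.46. Against all 9 inputs the counts were 6 and 0 (median 0.27), and 10 and 5 (median 0.29), beside 1384 and 532 of 13618 mRNA genes. Against input set 2 the medians were 0.08 and 0.21. SRRM2 (chr16:2802627-2822539, plus strand), a large scaffold of nuclear speckles, was at 630, 487 and 664 FPKM in CBX3 and at 160, 167 and 156 FPKM in input, with a log2 fold change of 1.86 (SE 0.17, limma adjusted p = 1.00e-12). DHX38, an RNA helicase that acts in the catalytic steps of splicing, was at 90.9, 108 and 105 FPKM against 29.5, 30.9 and 29.6 FPKM (log2 1.72, SE 0.16, limma adjusted p = 3.79e-12). The lowest CBX3 library was about as far above the highest input for LUC7L3, a U1 snRNP-associated factor, at 225, 307 and 228 FPKM against 77.9, 75.6 and 80.1 FPKM (log2 1.67). Smaller changes were those of SRSF5 (log2 1.20), SRSF4 (1.11), SRSF11 (1.07) and the U1 protein SNRNP70 (1.02). U2AF2, the large subunit that recognizes the polypyrimidine tract, was called with 1.03 against input set 1, but had 0.45 against all 9 inputs. U2AF1 (0.07) and HNRNPK (0.22) were not called.

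Genes of the pathway in which CBX3 itself works were called in a few cases. Of 34 HP1 and H3K9 methylation genes, 4 were enriched (11.8%, beside 7.75% of mRNA genes) and 0 depleted, and the median log2 fold change was 0.40. DNMT1 (chr19:10244018-10341962, minus strand), the maintenance DNA methyltransferase, was at 266, 306 and 325 FPKM in CBX3 and at 135, 130 and 122 FPKM in input set 1, a 2.31-fold difference (log2 1.21, SE 0.15, limma adjusted p = 2.59e-09). EHMT1, an H3K9 methyltransferase, was at 88.1, 86.4 and 111 FPKM against 43.5, 41.4 and 45.0 FPKM (log2 1.11, SE 0.18, limma adjusted p = 2.61e-06). Neither gene had an input library near its CBX3 level. CHAF1A, a histone chaperone subunit that binds HP1 proteins, had a log2 fold change of 1.04. Without CBX3 replicate 3, EHMT1 fell to 1.00 and CHAF1A to 0.99, just under the change needed for a call, although their adjusted p stayed at 1.46e-04 and 1.34e-05. Near the same edge, DAXX, a chaperone of histone H3.3, had 1.03, or 0.90 against all 9 inputs. SETDB1 (0.82) and the corepressor TRIM28 (0.23) were not called, and SUV39H1 was below 1 FPKM in each library.

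The wider list of chromatin remodelers, methyltransferases and coactivators had 8 of 82 genes enriched (9.76%, near the 7.75% of mRNA genes) and 0 depleted, with a median of 0.44. BAZ2A, a subunit of the nucleolar remodeling complex, was at 111, 131 and 120 FPKM against 54.1, 50.0 and 47.0 FPKM (log2 1.24, SE 0.15, limma adjusted p = 5.28e-09). HDAC4 (1.32), the acetyltransferase gene KAT2A (1.27), the H3K27 methyltransferase gene EZH1 (1.22) and CHD6 (1.08) were also enriched. Of 48 cohesin and DNA damage genes, 4 (8.33%, again near 7.75%) were enriched and 0 depleted (median 0.34). These were the helicase gene RECQL4 (1.68), the DNA polymerase gene POLE (1.44), the Fanconi anemia gene FANCA (1.16), of which 19.6% of exon bases overlap ZNF276 on the other strand, and SMC1A.

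Genes of large structural proteins were counted in the same way. Of 76 centrosome and kinesin genes 8 (10.5%) were enriched and 0 depleted (median 0.47), of 15 golgin genes 3 and 0 (median 0.59), of 39 genes of dynein, spectrin and other giants 4 (10.3%) and 0 (median 0.43), and of 30 nucleoporin genes 1 (3.33%) and 0 (median 0.25), beside 7.75% of mRNA genes enriched. Apart from the few golgins these shares were near or under that of mRNA genes. Against all 9 inputs 14 of the 76 centrosome and kinesin genes were enriched (median 0.59), beside 1384 of 13618 mRNA genes, and the medians were 0.81 for golgins and 0.08 for nucleoporins. GOLGA2, a matrix protein of the cis-Golgi, was at 163, 190 and 174 FPKM in CBX3 and at 63.4, 65.9 and 63.5 FPKM in input set 1, with no overlap (log2 1.43, SE 0.19, limma adjusted p = 2.38e-08). The mitotic kinesin genes KIF22 (1.39) and KIF18B (1.26), the pericentriolar scaffold gene PCNT (1.35) and the myosin gene MYO18A (1.40) were enriched. The nucleoporin gene AAAS had 1.01, or 0.89 against all 9 inputs, 0.99 without CBX3 replicate 1 and 0.98 without CBX3 replicate 2.

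Of 24 immediate early genes tested, whose mRNAs are made in a burst and decay fast, 5 were enriched (20.8%, beside 7.75% of mRNA genes) and 0 depleted, with a median of 0.64. This was the highest median of the lists against input set 1, but without input set 1 replicate 1 it was 0.53, and against all 9 inputs golgins, with 0.81, were above it (0.61). FOS (chr14:75745529-75748933, plus strand), a subunit of the AP-1 transcription factor, was at 53.9, 19.1 and 30.6 FPKM in CBX3 and at 1.03, 5.29 and 5.96 FPKM in input set 1. The groups did not overlap, and the log2 fold change of 2.87 (SE 0.61, limma adjusted p = 2.03e-04) was the largest of any named mRNA, although 1 input library was far below the other two. JUN, the partner of FOS, was at 26.7, 22.4 and 20.7 FPKM against 4.67, 9.35 and 9.20 FPKM (log2 1.52, SE 0.36, limma adjusted p = 7.68e-04). FOSB (1.45), ZFP36 (1.08), which destabilizes AU-rich mRNAs, and the phosphatase gene DUSP1 (1.05) were enriched too. EGR1, at 28.6, 18.7 and 19.9 FPKM against 2.82, 14.7 and 15.2 FPKM, was not called (log2 1.21, limma adjusted p = 0.164). For FOS, JUN and EGR1, input replicate 1 was the lowest of the 3 inputs. MYC (0.41) and IER2 (0.52) were not called.

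Globin and erythroid genes had 3 of 40 enriched (7.50%, beside 7.75% of mRNA genes) and 2 depleted (5.00%, beside 1.95%), with a median of -0.05. Against all 9 inputs 3 were enriched and 5 depleted (median -0.20), beside 1384 and 532 of 13618 mRNA genes. The enriched ones included the cofactor gene LDB1 (1.26) and ZFPM1 (1.18), which encodes a partner of GATA1. GYPC, a glycophorin of the red cell membrane, was depleted, at 52.2, 51.6 and 49.3 FPKM in CBX3 and 108, 122 and 121 FPKM in input set 1 (log2 -1.18). CA1, a carbonic anhydrase, was called at -1.22 (limma adjusted p = 0.0429), or -0.65 and no call against all 9 inputs, but without CBX3 replicate 1, 2 or 3 the adjusted p was 0.0851, 0.0916 or 0.0854, and without input set 1 replicate 2 or 3 it was 0.153 or 0.181. The fetal globin HBG2 varied widely within groups, at 380, 130 and 495 FPKM against 178, 901 and 944 FPKM. It was not called (log2 -0.88, limma adjusted p = 0.428).

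RNAs made in mitochondria showed the strongest depletion. Of 28 mitochondrially encoded RNAs, 17 (60.7%, beside 3.90% of all genes) were depleted and 0 enriched, with a median log2 fold change of -2.62. MT-CO3, a subunit of cytochrome oxidase, was at 278, 325 and 235 FPKM in CBX3 and at 1890, 1685 and 1680 FPKM in input set 1, a 6.30-fold difference (log2 -2.66, SE 0.24, limma adjusted p = 7.19e-13). MT-ND1, a subunit of complex I, averaged 18.2 ± 1.72 FPKM against 103 ± 4.33 FPKM (SD, n = 3 each, log2 -2.45). The groups did not overlap for either gene. The other mitochondrial mRNAs among the 10 with the largest depletion lay between MT-ND2 at -2.59 and MT-ATP8 at -2.19. These 10 were ranked among called mRNA genes with a mean of at least 5 FPKM and no overlap. Together, mitochondrial mRNAs made up 0.215%, 0.228% and 0.209% of all gene FPKM in the CBX3 libraries. In input set 1 their share was 1.19%, 1.09% and 1.08%. It averaged 0.298% in phospho-CBX3 and 0.144% in SUZ12, so these fRIP groups were under input as well. Over all 9 inputs the share was 1.10% ± 0.0872 (SD), and the exact permutation test (two-sided, 3 against 9 libraries) gave p = 0.00909, the smallest it can give. The short transfer RNA gene MT-TC was listed at 0 in all CBX3 libraries. Nuclear copies of mitochondrial sequence share many 31-base stretches with these genes (45.0% for MT-CO3 and 28.2% for MT-ND1), so the split of reads between them is uncertain.

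Cytosolic ribosomal protein mRNAs, which are among the most heavily translated messages of a cell, were the next group. Of 84 genes, 40 (47.6%, beside 1.95% of mRNA genes) were depleted and 0 enriched, with a median of -0.97, and against all 9 inputs 58 were depleted, beside 532 of 13618 mRNA genes. RPL39 was at 77.7, 65.2 and 89.1 FPKM in CBX3 and at 318, 309 and 296 FPKM in input set 1, a 3.97-fold difference (log2 -1.99, SE 0.26, limma adjusted p = 1.89e-08). RPS29 was at 174, 146 and 166 FPKM against 554, 608 and 655 FPKM (log2 -1.90). No CBX3 library reached the lowest input for either gene, of which 49.4% and 41.5% of 31-base stretches occur in other genes, so that reads shared with pseudogenes are uncertain. Ribosomal protein mRNAs held 4.71% ± 0.187 of all gene FPKM in CBX3, 8.93% in input set 1 and 9.92% ± 1.02 over the 9 inputs. The difference from the 9 inputs had an exact permutation p of 0.00909, again the smallest possible. In phospho-CBX3 and SUZ12 the share was 5.45% and 3.11%, also under input.

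Other housekeeping groups followed in part. Among 49 translation factor genes 3 were depleted (6.12%, beside 1.95% of mRNA genes) and 1 was enriched, with a median of -0.10. Against all 9 inputs the counts were 7 and 3 (median -0.34), beside 532 and 1384 of 13618 mRNA genes. PABPC1, the cytoplasmic poly(A)-binding protein, was at 279, 265 and 309 FPKM in CBX3 and at 692, 729 and 741 FPKM in input (log2 -1.34, SE 0.13, limma adjusted p = 3.99e-12). The elongation factor EEF1A1 was at 651, 719 and 708 FPKM against 1551, 1630 and 1628 FPKM (log2 -1.21), and the initiation factor subunit EIF3E had -1.02. The exchange factor subunit EIF2B5 went the other way with 1.25. Of 101 nuclear-encoded respiratory chain genes 14 were depleted (13.9%) and 2 enriched (median -0.50). Against all 9 inputs 47 were depleted (median -0.93), beside 532 of 13618 mRNA genes. COX7C (log2 -1.64) and COX8A (2.83-fold), small subunits of cytochrome oxidase, were depleted, whereas NDUFV1, a core subunit of complex I, was at 343, 346 and 457 FPKM against 151, 175 and 167 FPKM (log2 1.20, SE 0.15), or 0.96 against all 9 inputs. The other call was that of a second locus filed under the symbol NDUFB8, which lies wholly within exons of SEC31B and is no measure of the NDUFB8 gene. None of 43 proteasome genes and none of 40 chaperone genes were called by limma, with medians of -0.08 and 0.03 against input set 1. Against all 9 inputs 3 and 2 were depleted (medians -0.37 and -0.22), beside 532 of 13618 mRNA genes. At an unadjusted p under 0.05 against input set 1, 8 proteasome genes were higher and 5 lower, and 9 chaperone genes were higher and 2 lower, beside 5255 and 3983 of all 25442 genes.

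**Figure D2:**
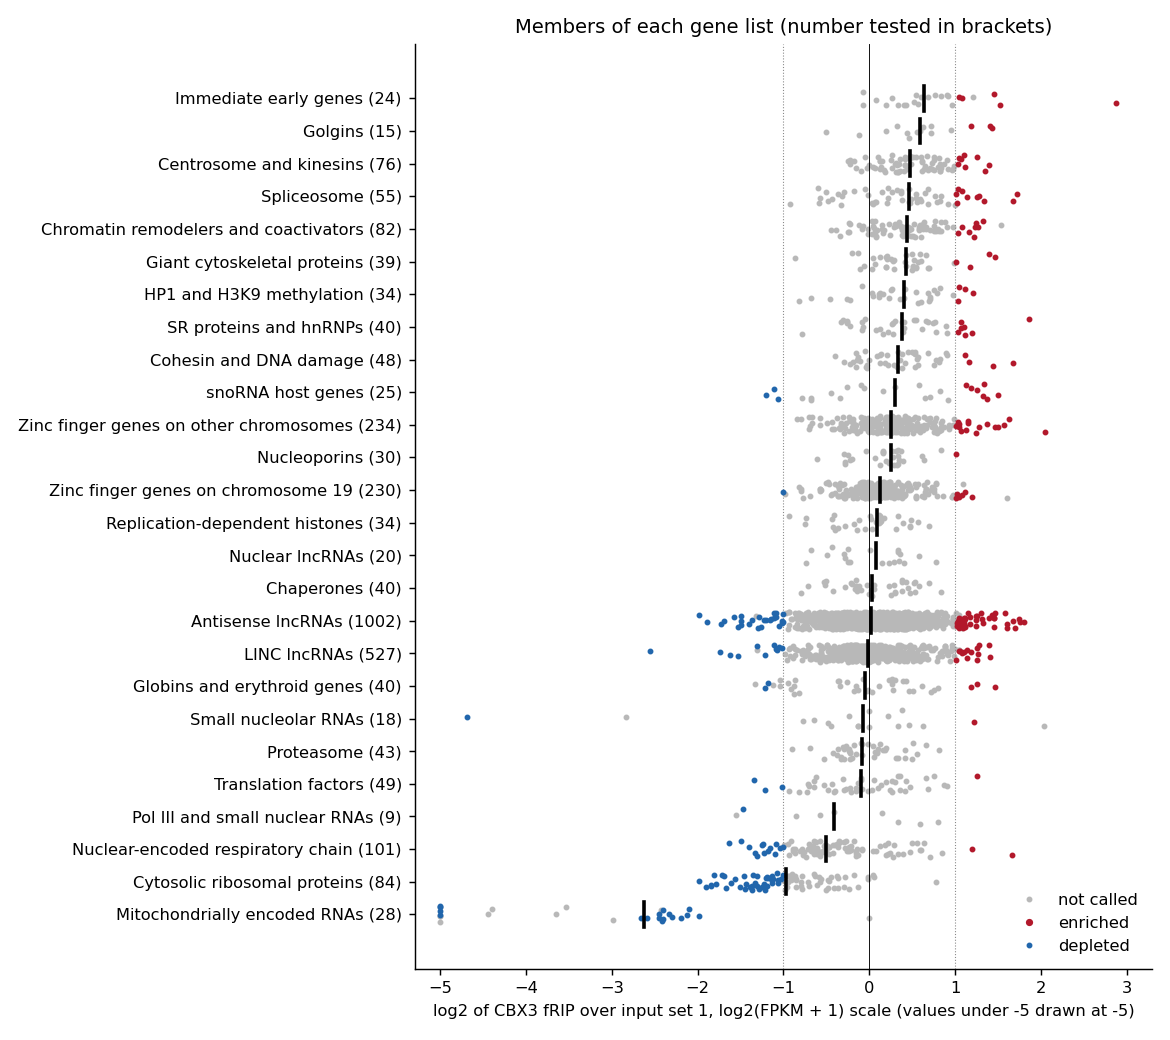
Log2 fold change of CBX3 fRIP over input set 1 for each member of the gene lists, with enriched members in red, depleted members in blue, others in grey and a black bar at the median. Members below -5 are drawn at -5. The medians run from -2.62 for mitochondrially encoded RNAs and -0.97 for ribosomal proteins to 0.64 for immediate early genes.

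Noncoding RNAs did not move as a class. Hosts of small nucleolar RNAs had 7 of 25 genes enriched and 3 depleted, beside 5.35% and 3.90% of all genes. Against all 9 inputs 5 were enriched and 3 depleted, beside 7.45% and 3.65% of all genes. SNHG15 was at 114, 116 and 129 FPKM in CBX3 and at 37.6, 45.4 and 42.3 FPKM in input set 1, a 2.82-fold difference, and SNHG12 had a log2 fold change of 1.34, or 0.62 with an adjusted p of 0.151 against input set 2. SNHG5 went the other way, at 232, 199 and 246 FPKM against 475, 546 and 540 FPKM (log2 -1.20), as did C17orf76-AS1 and ZFAS1 (-1.06). None of 20 nuclear lncRNAs was called by limma, and at an unadjusted p under 0.05, 3 were higher and 5 lower, beside 591 and 847 of all 5245 lncRNA genes. The speckle lncRNA MALAT1 was at 4570, 4916 and 4060 FPKM against 5083, 5471 and 5547 FPKM, without overlap. Its wide error (log2 -0.25, SE 1.31) came from the spread within all groups of the fit, not from these libraries alone. The log2 value was 0.20 against all 9 inputs, so no direction was given. Of 9 Pol III and small nuclear RNAs tested, RN7SL1, the RNA of the signal recognition particle, was depleted (log2 -1.47). The intergenic lncRNA LINC00273 averaged 2.59 ± 1.23 FPKM against 19.5 ± 2.23 FPKM (SD, n = 3 each, log2 -2.56), while the 9 inputs ranged up to 135 FPKM. Of 527 LINC genes 14 were enriched (2.66%) and 11 depleted, and of 1002 antisense genes 40 (3.99%) and 27, beside 3.09% of lncRNA genes enriched. The counts against all 9 inputs were 27 and 4, and 65 and 16, beside 259 and 92 of 5245 lncRNA genes. At a mean of at least 5 FPKM and without overlap, the lncRNA genes with the largest enrichment included CTD-2562J17.2 (1.94) and RP11-326C3.2 (1.86). For antisense and overlapping genes the counting is not stated to use strand, so their reads cannot be told apart from those of their neighbors.

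Zinc finger genes, many of which lie in H3K9-methylated clusters on chromosome 19, had 6 of 230 enriched (2.61%) and 1 depleted on that chromosome (median 0.12) and 16 of 234 enriched (6.84%) and 0 depleted elsewhere (median 0.25). Both shares were under the 7.75% of all mRNA genes. Against all 9 inputs 15 were enriched on chromosome 19 and 18 elsewhere, beside 1384 of 13618 mRNA genes. ZNF692, on chromosome 1, had the largest value, at 143, 172 and 185 FPKM in CBX3 and 40.8, 38.1 and 39.4 FPKM in input set 1 (log2 2.05, SE 0.19, limma adjusted p = 8.90e-13). ZNF513 (1.63), ZNF276 (1.57) and ZNF558 (1.20) were enriched. ZNF121 was depleted by 2.01-fold, but with a log2 value of -0.97 without CBX3 replicate 2 or input set 1 replicate 2, and of -0.95 without input set 1 replicate 3, it was no call. Of 34 replication-dependent histone genes, none were called by limma against input set 1, and the median was 0.09. At an unadjusted p under 0.05, 2 were higher and 3 lower, fewer for their number than 5255 and 3983 of all 25442 genes. Against all 9 inputs the median was -0.77 with 11 depleted, beside 532 of 13618 mRNA genes, so their direction depended on the input set. HIST1H1C was at 990, 1035 and 1344 FPKM against 938, 1068 and 1078 FPKM (log2 0.12), and at -0.49 against all 9 inputs.

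The isoform table gave a finer view. Of 104506 transcripts tested, 9546 (9.13%) were enriched and 2384 (2.28%) depleted. The median transcript lay at 0.10, and with each library centred on its own median the split was 5780 to 4838, as this median moved to -0.15. Transcripts annotated as retaining an intron stood apart within mRNA genes under both scalings. Of 19118 such transcripts, 4360 (22.8%) were enriched and 70 (0.366%) depleted, with a median of 0.51, and after centring 2750 were enriched and 157 depleted, with a median of 0.26. Coding transcripts of mRNA genes were enriched in 2492 of 42461 cases (5.87%) and depleted in 1202 (2.83%), with a median of 0.02, and after centring in 1495 and 2481 cases with a median of -0.23. Transcripts marked for nonsense-mediated decay had 725 of 8351 enriched and 87 depleted, with a median of 0.19, and after centring 417 and 161 with a median of -0.06. The enriched retained intron transcripts came from 2207 of 6732 genes. Among 6394 genes with both kinds, the retained intron transcripts had the higher mean log2 fold change in 4846 (75.8%), with a median difference of 0.37. An isoform's FPKM is an estimate that splits the reads of a gene over overlapping models, so the isoforms of a gene are not independent. Intron reads of unspliced RNA can fall on retained intron models too. Retained introns and RNA not yet spliced were therefore not told apart here.

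**Figure D3:**
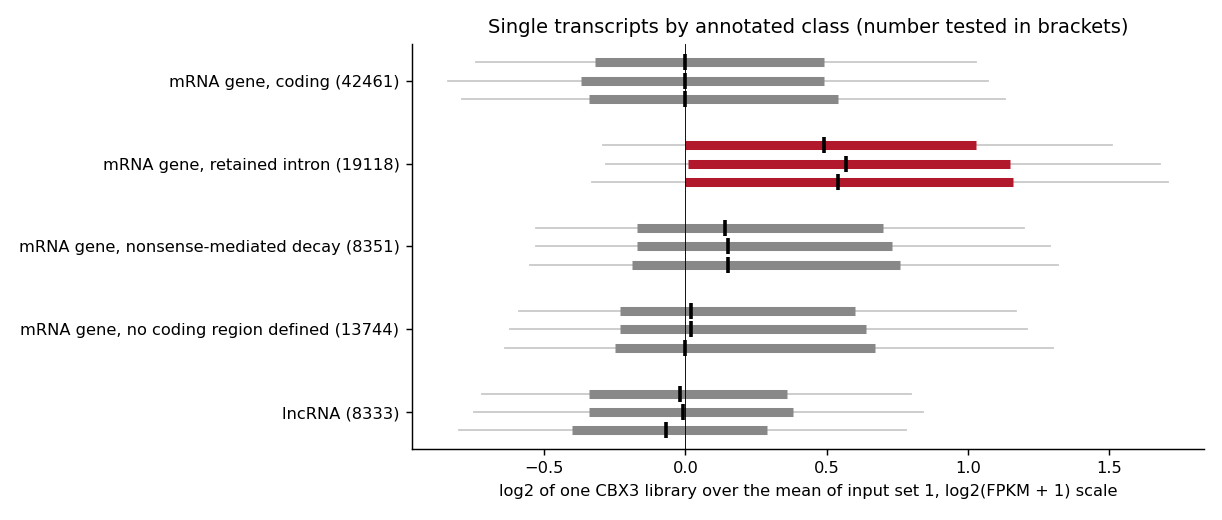
Log2 fold change over input set 1 of the transcripts of each class, for each CBX3 library, with thin lines between the outer deciles, thick lines between the quartiles and a bar at the median. In all 3 libraries the retained intron class has the highest median, 0.49 to 0.57, while the coding class has a median of 0.00.

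The share of a gene's FPKM that its retained intron transcripts took was then computed in 5764 genes with a mean of at least 5 FPKM. The median share was 24.1%, 26.1% and 24.7% in the CBX3 libraries and 17.9%, 16.4% and 16.6% in input set 1. The groups did not overlap and differed by 7.97 percentage points, with an exact permutation p of 0.1, the smallest that 3 against 3 libraries allow (two-sided). Over all 9 inputs the median share was 14.0% ± 2.37 (SD), 11.0 points below CBX3, with an exact permutation p of 0.00909, the smallest possible. The other input sets were lower than set 1, at 12.6%, 13.2% and 13.0% for set 2 and 11.5%, 11.8% and 12.5% for set 3. The inputs thus differed by set, whereas the test over all 9 treats them as exchangeable libraries. In phospho-CBX3 the medians were 15.1%, 14.0% and 14.7%, and in SUZ12 they were 27.1%, 28.3% and 27.0%. CBX3 differed from phospho-CBX3 by 10.4 points and from SUZ12 by -2.52 points, each without overlap and each with the smallest exact p of 0.1. Among the 24 targets the mean of CBX3 ranked 4, below HNRNPH1 (34.0%), SUZ12 (27.5%) and ADAR (26.8%).

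The share was above every input set 1 library in all CBX3 libraries for 2713 genes (47.1%) and below every one for 392 (6.80%). It was not limited to enriched genes, as the median share was 45.3% in CBX3 against 34.8% in input for 777 enriched genes, 23.0% against 15.3% for 4894 genes not called and 12.8% against 3.21% for 93 depleted genes. AAAS went from 35.5% of its FPKM in input to 69.1% ± 1.79 (SD, n = 3) in CBX3, and GOLGA2 from 25.5% to 50.6%. The depleted PABPC1 had a share of 3.75% in input and 19.1% in CBX3. Some enriched genes did not show it. CLASRP was at 45.7% in input and 45.1% in CBX3, the kinase gene CLK1 at 55.4% and 52.0%, and LUC7L went from 66.9% to 45.0%.

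**Figure D4:**
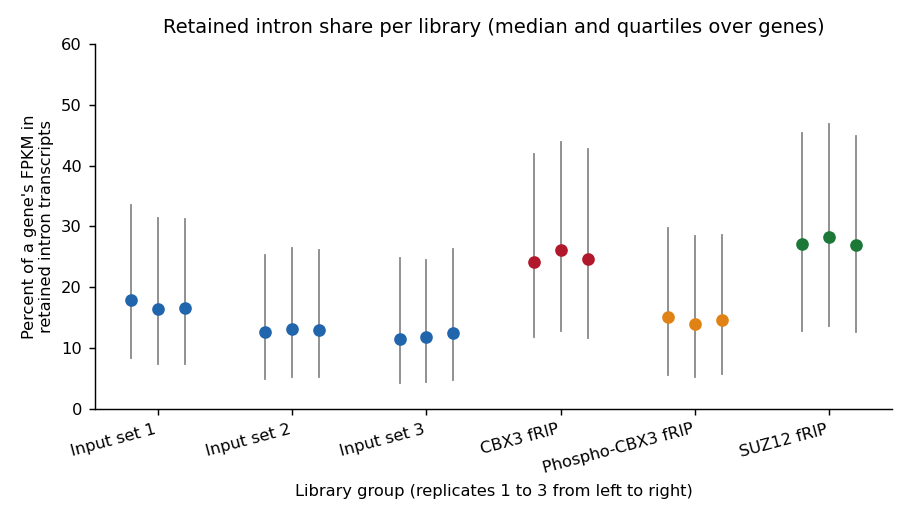
Median share of gene FPKM in retained intron transcripts (percent) for each library of CBX3, phospho-CBX3, SUZ12 and the 3 input sets, with bars over the quartiles across 5764 genes. The 3 CBX3 medians lie at 24.1% to 26.1%, above the 11.5% to 17.9% of the 9 inputs and below the 27.0% to 28.3% of SUZ12.

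The introns placed inside enriched transcripts were shorter and richer in GC than those placed in other retained intron transcripts. Of the 19118 retained intron transcripts, 5852 held a whole intron of a coding transcript, and 2302 of these were among the enriched. The 3692 introns inside enriched transcripts had a median length of 216 bases and a median GC content of 58.9%. Introns held only by transcripts that were not enriched (4407) had 321 bases and 54.0%, and the other introns of the main coding transcripts (118270) had 1597 bases and 43.2%. A placed intron had to lie whole inside 1 exon of the retained intron model, which short introns meet more easily. The comparison with the other introns is therefore uneven, and neither comparison was made within genes. To show what such introns look like, the splice sites of 4 of them, chosen after their values were seen, are printed for genes described above, 1 intron each, from the enriched retained intron transcript with the highest CBX3 level. Each window is read 5′ to 3′ on the strand of the gene in hg19, with 10 bases of exon in capitals and 20 bases of the intron in lower case. In each, the intron begins with gt and ends with ag.
DHX38 donor, chr16:72138021-72138050, plus strand: GCTCCGGGAGgtgagggctgtgtggtttgg
DHX38 acceptor, chr16:72138365-72138394, plus strand: cgagccgcctcttctctcagGTAGTGGCTC
GOLGA2 donor, chr9:131022724-131022753, minus strand: TGTAAAGCTGgtgcgctgccccacctggag
GOLGA2 acceptor, chr9:131022459-131022488, minus strand: gattgcttctctctgtccagACTAATGAGA
MYO18A donor, chr17:27424221-27424250, minus strand: GGAACGGCGGgtgaggctggggaggagctg
MYO18A acceptor, chr17:27423924-27423953, minus strand: caccccatcttggcccctagCTCGGGGACC
BAZ2A donor, chr12:56998837-56998866, minus strand: CTACTGTCAGgtgagtgcaagtccctccca
BAZ2A acceptor, chr12:56998574-56998603, minus strand: ttatgctgtcctccacacagTCCCTAAAGA

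The DHX38 transcript annotated as keeping an intron of 354 bases (57.9% GC) was at 19.1, 21.6 and 24.5 FPKM in CBX3. In input set 1 it was at 4.51, 4.91 and 4.97 FPKM (log2 fold change 1.96, SE 0.27, limma adjusted p = 1.81e-07). For GOLGA2, with an intron of 275 bases (60.4% GC), the values were 14.7, 19.8 and 17.7 FPKM against 2.99, 1.81 and 3.88 FPKM (log2 2.27, SE 0.41). The MYO18A transcript, with 307 bases (59.9% GC), was at 11.9, 16.4 and 19.0 FPKM against 0.943, 2.08 and 1.65 FPKM (log2 2.71, SE 0.30). None of these groups overlapped. The BAZ2A intron, with 273 bases, was the AT-rich case at 38.8% GC, and its transcript was at 19.9, 22.1 and 20.2 FPKM against 6.52, 3.52 and 4.49 FPKM (log2 1.93, SE 0.29). The gene-level log2 fold changes were lower in these 4 cases, at 1.72, 1.43, 1.40 and 1.24. Of the 20 transcripts that met the same rule, 13 had a higher log2 fold change than their gene and 7 a lower one, among them those of PCSK4 (1.32 against 2.09) and SRRM2 (1.55 against 1.86).

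Features of the main coding transcript were then set against the log2 fold change over 13406 mRNA genes, as descriptions, since genes are not replicates. The 3 CBX3 libraries share their input, and the values are Spearman correlations as mean ± SD over these libraries. GC content of the transcript had 0.290 ± 0.0218, coding length 0.269 ± 0.0152 and exon number 0.268 ± 0.00807. Mean intron length had -0.241 ± 0.0220 and intron GC content 0.236 ± 0.0213 over 13015 genes with introns. The length of the whole gene (-0.0132 ± 0.0257) had almost none, or 0.0668 ± 0.0183 against all 9 inputs. The input level had 0.00790 ± 0.0763, but -0.162 ± 0.0360 among 9242 genes with a mean of at least 5 FPKM. The 3′ untranslated length had -0.0947 ± 0.00932, or -0.0580 ± 0.00992 against all 9 inputs. Given transcript length, exon number kept a partial rank correlation of 0.263, and given exon number, transcript length had -0.0702. Transcript GC content kept 0.179 given intron GC content, which in turn had -0.0208 given transcript GC content. The retained intron share measured in input sets 2 and 3, which are no part of the fold change, had the highest value, 0.422 ± 0.0369 over 5764 genes.

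With the mRNA genes divided by each feature into 5 groups of about equal size, the calls were unevenly spread. Of the genes in the group with the lowest transcript GC content 1.45% were enriched and 3.50% depleted, and of those in the group with the highest 19.0% and 0.373%. The genes with the shortest introns, of up to 1038 bases on average, were enriched in 20.2% and those with the longest in 2.00%. The group with the fewest exons (1 to 4) was enriched in 4.21% and depleted in 3.95% of cases, and the group with the most (from 15) in 13.1% and 0.112%, where genes with equal exon numbers at an edge were divided between neighboring groups. Across groups of the retained intron share in input the enriched percentage went from 2.95% to 34.0%. These groups hold only the 5764 genes for which the share was computed, of which 777 were enriched. By chromosome, the percentage of enriched mRNA genes was highest on 16 (91 of 655, 13.9%) and 19 (147 of 1140, 12.9%), where the median intron GC content was 50.8% and 52.4%, and lowest on 13 (6 of 211, 2.84%), where it was 39.5%.

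**Figure D5:**
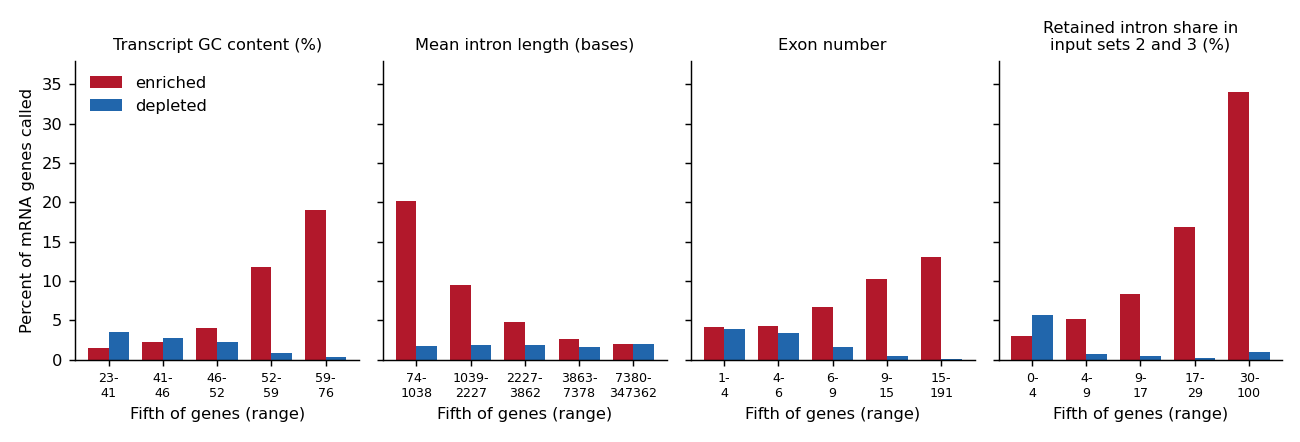
Percent of mRNA genes enriched (red) and depleted (blue) in CBX3 fRIP in 5 groups of about equal size by transcript GC content, mean intron length, exon number and retained intron share in input sets 2 and 3. Enrichment goes from 1.45% to 19.0% along GC content, from 20.2% to 2.00% along intron length and from 2.95% to 34.0% along the retained intron share. The groups by retained intron share hold only the 5764 genes for which it was computed.

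Densities of all 6-letter words on the transcript strand of these transcripts were compared in the same way. The 5 words with the highest correlation were GAGGAG (0.224 ± 0.0137), GAGCTG (0.215), AGGAGC (0.214), GGAGGA (0.211) and CTGGAG (0.208). GAGGAG, which overlaps GGAGGA and AGGAGC, occurred in 76.1% of the transcripts. With GC content held constant these words kept 0.127, 0.0990, 0.120, 0.122 and 0.0915. The lowest were AATAAA (-0.215 ± 0.0104), TAAAAT (-0.202), TTTAAA (-0.196), AAATAA (-0.194) and TTAAAA (-0.194), of which AATAAA, the letters of the common polyadenylation signal, was in 77.6% of transcripts and kept -0.0927 given GC content, while TTTAAA went to -0.00263. Given GC content, the highest values belonged to purine words, among them GAAGAA (0.144).

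The CBX3 and phospho-CBX3 fRIP were compared directly, without input in the contrast. Of 25442 genes, 622 (2.44%) were higher in CBX3 than in phospho-CBX3 and 89 (0.350%) lower. This split depended on scale, with 256 (1.01%) higher and 218 (0.857%) lower once each library was centred on its median, as the median log2 difference moved from 0.08 to -0.12. CLK2 was at 51.3, 38.7 and 49.7 FPKM in phospho-CBX3 and differed by 1.49 on the log2 scale from CBX3 (SE 0.17, limma adjusted p = 3.48e-09). The log2 difference was 1.34 for TPM2, 1.23 for SRRM2, 1.22 for ZNF692 and 1.19 for CLASRP, and 0.98 for DNMT1, which was no call. The atypical MAP kinase gene MAPK15, at 5.70, 5.55 and 7.17 FPKM in phospho-CBX3 against a mean of 24.4 ± 6.70 FPKM in CBX3, had a log2 difference of 1.80, and the acrosomal gene ACRBP had 1.76, or 1.35 with an adjusted p of 0.0636 without phospho-CBX3 replicate 2. FOS, at 6.55, 11.7 and 6.71 FPKM in phospho-CBX3, had 1.85, but its adjusted p of 0.0346 rose to 0.184 without CBX3 replicate 1, to 0.0767 without CBX3 replicate 3, to 0.0978 without phospho-CBX3 replicate 1 and to 0.0986 without phospho-CBX3 replicate 3. The lower genes included ZNF407, at 7.63, 7.60 and 9.12 FPKM in CBX3 and 26.4, 25.8 and 26.8 FPKM in phospho-CBX3 (log2 -1.59, SE 0.19, limma adjusted p = 1.91e-08). LRBA, a large vesicle trafficking protein, had -1.42 and the DNA ligase LIG4 had -1.31, and none of these 3 differed from input set 1 by a call in CBX3 (-0.02, -0.19 and -0.06). Ribosomal protein genes gave 0 calls between the antibodies, where RPL39 had -0.17 and RPS29 -0.64, and of the mitochondrial RNAs 1 of 28 was lower.

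The comparison with SUZ12, whose retained intron share was also high, gave larger counts. Of 25442 genes, 547 (2.15%) were higher in CBX3 than in SUZ12 and 1776 (6.98%) lower, or 318 (1.25%) and 2214 (8.70%) after centring. Lists of large proteins and of chromatin genes were on the lower side, with 39 of 76 centrosome and kinesin genes, 30 of 48 cohesin and DNA damage genes, 36 of 82 chromatin remodeler genes and 7 of 15 golgin genes lower and none higher. The Holliday junction resolvase GEN1 was at 178, 181 and 230 FPKM in SUZ12 and at a mean of 36.6 ± 7.50 FPKM in CBX3 (log2 -2.40, SE 0.17, limma adjusted p = 2.59e-17), and SYCP2, a protein of the synaptonemal complex, had -2.31. DNMT1, at 586, 491 and 566 FPKM in SUZ12, differed by -0.87, whereas CLK2 (0.34), CLASRP (0.20), DHX38 (-0.03) and TPM2 (0.26) differed by less than was needed for a call. Immediate early genes and snoRNA hosts went the other way, with 6 of 24 and 7 of 25 higher and none lower. The log2 difference was 1.86 for EGR1, 1.76 for FOS and 1.16 for SNHG15, but the first lost its call without SUZ12 replicate 1 (1.28) or CBX3 replicate 1 (1.68), and FOS lost it without SUZ12 replicate 1 (1.06), CBX3 replicate 1 (1.38) or CBX3 replicate 3 (1.78). TMUB1, a membrane protein with a ubiquitin-like domain, was at 23.2, 19.7 and 20.7 FPKM in SUZ12 and 78.1 ± 10.0 FPKM in CBX3 (log2 1.83, SE 0.19, limma adjusted p = 5.37e-12).

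Against the same input, transcript features went with the SUZ12 values in another way. For SUZ12 the Spearman correlation was 0.529 ± 0.0151 with exon number, -0.207 ± 0.0489 with transcript GC content and 0.409 ± 0.00745 with gene length, beside 0.268, 0.290 and -0.0132 for CBX3. For phospho-CBX3 it was 0.282 ± 0.0228 with exon number and 0.0878 ± 0.141 with GC content, which ranged from -0.0732 to 0.186 among its 3 libraries. These fRIP groups share the libraries of input set 1, and the differences between the correlations were not tested.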

How the data were processed

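The authors sequenced RNA from fRIP and input of K562 cells, aligned it to hg19 (TopHat) and estimated FPKM for GENCODE v18 with Cuffdiff 2 and Cuffnorm. The submitters' processing notes also name CASAVA 1.4. The deposited gene and isoform tables hold FPKM per library. A further deposited table holds the authors' own comparisons of each fRIP with input (a Cuffdiff test statistic, p-value and q-value), which was not used. Use of strand in the counting was not given in the sources used here. Labels give the groups and replicate numbers, and the libraries and input set were given by the question asked.

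FPKM of 48453 genes and 185661 transcripts were read, and those that reached 1 FPKM in 2 or more of the 79 libraries were kept (25442 genes and 104506 transcripts). A pseudocount of 1 FPKM was added before log2. A single limma 3.58.1 fit (R 4.3.3) with an intensity trend held all 79 libraries in 27 groups, with no replicate block, with Benjamini-Hochberg adjustment over all features of a comparison. Single values were compared with exact permutation tests, two-sided. Classes, coordinates, lengths, introns and sequence came from GENCODE v44 lifted to hg19, matched by identifier (46055 genes and 172143 transcripts), with Python 3.11.15, numpy 2.4.6, scipy 1.17.1, pandas 2.3.3 and matplotlib 3.10.9. The main coding transcript is the most expressed coding isoform in input set 1. Introns under 30 bases were left out.

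The deposited values do not state depth. It was read from the FPKM step of 1 fragment in single-isoform genes, where 77.5% to 91.5% of low values were whole multiples of it to within 0.15, and is an estimate. In simulated data with 200 changed genes of 25442, the fit recovered 97% of genes changed by a log2 of 1.5. It likewise recovered 97% of those changed by 2, and it called 8 unchanged genes. The changed genes were drawn only from genes above a minimum mean level, so recovery among genes with low values was not tested. These values come from a single random draw, and another draw gave somewhat different ones.

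The members, gene lists and tests were chosen with earlier results of these data known. Genes named are CBX3, CBX1, CBX5, EIF5B, CHST2, CEBPA, STAG2 and GOLGB1; the 12 mRNA genes with the largest and the 10 with the smallest log2 fold change and 5 lncRNA genes each way, among called genes with a mean of at least 5 FPKM and no overlap between groups; up to 3 enriched and 2 depleted members per list, or the one with the highest input where none was called; and the 5 mRNA genes each way against phospho-CBX3 and SUZ12. Other members of the lists, and CLK1, CLK3 and CLK4, were chosen after their values were seen. Printed splice sites are from named, called mRNA genes with an enriched retained intron transcript that holds 1 placed intron. Alternatives covered the pseudocount, filters, centring, the input set, the libraries in the fit, a replicate block and each library left out, and those for the retained intron share were added after seeing the data. Nuclear lysate, other proteins and chromatin data were not analysed here. Some genes that met the rule are not reported here.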

Additional observations from a re-analysis of the deposited data

Results flagged for a closer look

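Among 109 groups of 9 input libraries tested, 6 had 1 library far from the others, and chance alone gives about 1 in 20. In each of the 6 it was input set 2 replicate 3, which is no part of the comparison with input set 1. That library was the lowest for CBX5 (39.5 FPKM, others 58.0 to 74.9 FPKM), for GOLGA2 (42.6 FPKM, others 61.9 to 70.7 FPKM) and for LIG4 (4.25 FPKM, others 6.51 to 7.99 FPKM). It was the highest for KLHL17 (18.5 FPKM, others 9.66 to 13.8 FPKM), for RECQL4 (98.1 FPKM, others 48.5 to 73.5 FPKM) and for SNHG12 (142 FPKM, others 48.1 to 70.4 FPKM).

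The direct test called 622 genes higher and 89 lower in CBX3 than in phospho-CBX3. The 5 mRNA genes with the largest difference each way, at a mean of at least 5 FPKM and without overlap, are given here. On the log2 scale, CBX3 was above phospho-CBX3 by 1.85 for FOS, 1.96 for ATXN3L, 1.95 for AL356356.1, 1.80 for MAPK15 and 1.76 for ACRBP. ATXN3L shares 60.4% of its exon bases with another gene on the opposite strand, and AL356356.1 lies wholly within exons of ADAMTSL4. CBX3 differed from phospho-CBX3 by -2.11 for COMMD3-BMI1, -1.59 for ZNF407, -1.43 for C1orf134, -1.42 for LRBA and -1.31 for LIG4. COMMD3-BMI1 and C1orf134 lie wholly within exons of other genes, so their reads cannot be told apart from those of their neighbors. Without phospho-CBX3 replicate 2, the calls of COMMD3-BMI1 (-1.92, limma adjusted p = 0.0563), C1orf134 (-1.30, 0.0643) and ACRBP (1.35, 0.0636) were lost, and without CBX3 replicate 3 that of COMMD3-BMI1 was lost too (-1.74, 0.0797). AL356356.1 lost its call without CBX3 replicate 1 (1.94, 0.0666), CBX3 replicate 3 (1.71, 0.116), phospho-CBX3 replicate 1 (1.38, 0.197) or phospho-CBX3 replicate 2 (2.07, 0.0526).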

How the results depend on the processing

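Genes enriched in CBX3 fRIP numbered 2419 against input set 2 and 2309 against set 3, and with a mean of at least 5 FPKM 478 genes were depleted. Enriched transcripts numbered 5589 with a pseudocount of 0.1 FPKM and 5780 with centred libraries, and depleted transcripts 4838 with centred libraries. Against phospho-CBX3, 945 genes were higher and 137 lower with a pseudocount of 0.1 FPKM, and 256 and 218 with centred libraries. Against SUZ12, 1009 were higher with a pseudocount of 0.1 FPKM and 318 with centred libraries. The retained intron share differed by 11.0 percentage points against all 9 inputs. With each library left out in turn, enriched genes numbered 1285 to 1423, depleted genes 914 to 975, enriched transcripts 7850 to 9077 and depleted transcripts 2030 to 2284. The counts were then 489 to 746 higher and 69 to 114 lower against phospho-CBX3, and 510 to 757 higher and 1671 to 1865 lower against SUZ12, and the retained intron share differed by 7.41 to 8.45 points.

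Signs changed for some genes that were not called. Against all 9 inputs, set 2 and set 3, the log2 values were -0.02, -0.39 and -0.01 for CHST2, -0.23, -0.37 and -0.36 for HSP90AB1, 0.20, 0.39 and 0.47 for MALAT1, -0.49, -0.64 and -0.96 for HIST1H1C, 0.29, 0.25 and 0.63 for ZNF407, and 0.02, 0.11 and 0.15 for LRBA. LIG4 had 0.01 against all 9 inputs and 0.22 against set 2, and CBX3 had -0.03 against set 2. With centred libraries, STAG2 had 0.01 and ZNF407 0.04. With 1 library left out, CBX1 ranged from -0.15 to 0.02, STAG2 from -0.12 to 0.01, HSP90AB1 from -0.17 to 0.14, HIST1H1C from -0.02 to 0.20, and ZNF407 from -0.10 to 0.02. The cause was not tested. Of 118 named genes against input set 1, 89 kept their direction and their side of the threshold under every alternative.

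The replicate numbers were not taken to pair the libraries, since deviations of same-numbered CBX3 and input set 1 libraries correlated at -0.00111, -0.0303 and 0.0316. With phospho-CBX3 these were -0.0467, -0.0641 and 0.226, and with SUZ12 -0.0355, 0.245 and 0.228, so not every pair was over 0.1. With the number as a replicate block, 1357 genes were enriched and 985 depleted, as were 9455 and 2366 transcripts, 623 genes were higher and 90 lower than in phospho-CBX3, and 546 were higher and 1782 lower than in SUZ12. Depth limits low values most, and 1 fragment weighs more in the shallower CBX3 libraries than in input.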

Other observations

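Several other mRNAs were present in the CBX3 libraries without a call. The translation initiation factor EIF5B was at 48.2, 43.0 and 58.2 FPKM in CBX3 and at 40.2, 42.6 and 40.3 FPKM in input set 1, with a log2 difference of 0.26. The cohesin gene STAG2 averaged 95.4 ± 7.14 FPKM and 98.9 ± 8.22 FPKM, the golgin gene GOLGB1 26.9 ± 6.25 FPKM and 21.0 ± 1.37 FPKM, and the sulfotransferase gene CHST2 18.4 ± 4.47 FPKM and 13.9 ± 0.549 FPKM (SD, n = 3 each).

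For a few genes, chosen after their values were seen, the retained intron share was lower in CBX3 than in input. It was 33.0% in input set 1 and 10.9% ± 1.70 in CBX3 for the enriched GOLGA1, 54.4% and 39.8% ± 5.98 for the enriched HDAC4, and 38.5% and 24.8% ± 3.69 for EIF5B, whose level was not called (SD, n = 3 each).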
